A study of Rattus norvegicus with 12 samples.

Results

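The 8 genes of ketone body metabolism and cytosolic acetyl-CoA supply were examined in the hepatic transcriptome, namely Bdh1, Acat1, Oxct1, Aacs, Acat2, Acat3, Acly and Acss2. The livers came from 6 inbred alcohol-preferring iP10a female rats that drank 10, 20 and 30% (v/v) ethanol by free choice beside water and food for 23 weeks (EtOH animals) and from 6 iP10a females that had water as their only fluid over those 23 weeks (controls). All animals were 38 weeks old except EtOH animal 6, which was 39 weeks old. The single inbred strain, bred for alcohol preference, and the single sex limit both groups as a model, and the ethanol was drunk by choice, so intake was not fixed. Poly(A) RNA of each liver was sequenced as 1 library of 101-nucleotide paired-end reads, and levels are RPKM (reads scaled to transcript length and to the mapped reads of the library). The members were found by gene name. By name, 7 of the 8 had a row, and Acat2 had none. RefSeq gives Acat3 as an older symbol of Acat2, so the row listed as Acat3 is that of Acat2, the cytosolic thiolase, and is called Acat2 from here on. The 7 genes had 13 of the 34391 listed transcripts, and all 13 were among the 21718 transcripts with an RPKM above 0 in at least 1 liver. Where a gene had several rows, its main row was chosen by the highest mean RPKM over the 12 livers. The genes themselves were selected on earlier results of the same comparison of EtOH animals with controls, so their values below describe that comparison and are not independent support for it.

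In liver mitochondria, acetyl-CoA from fatty acid oxidation is turned into the ketone bodies acetoacetate and 3-hydroxybutyrate, which hepatocytes release for other organs and use little themselves. In the cytosol, acetyl-CoA for lipid synthesis comes from citrate, cleaved by Acly, and from acetate, activated by Acss2. Acetate is the end product of ethanol oxidation. Acetoacetate can also be activated directly in the cytosol, by Aacs, and Acat2 condenses acetyl-CoA into acetoacetyl-CoA, the entry to sterol synthesis.

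The cytosolic genes Aacs, Acat2 and Acss2 were lower in the EtOH animals. The cytosolic gene Acly and the mitochondrial genes Acat1, Bdh1 and Oxct1 were not called. Whether the cytosolic and mitochondrial genes differed from each other was not tested. Mean RPKM as deposited was 6.31 times lower in EtOH animals for Aacs, 3.83 times lower for Acat2 and 2.02 times lower for Acss2. After quantile normalization their log2 fold changes were -2.28, -1.72 and -0.82. Of the 7 main rows, 3 were called, at an adjusted p below 0.05 in limma on quantile-normalized log2(RPKM + 0.5) over all 21718 transcripts, and all 3 were lower. Over all transcripts 2.42% were called, 1.29% lower and 1.13% higher in the EtOH animals. No EtOH liver reached the lowest control for 2 of the 7 main rows, and for 2.43% of all transcripts. Since the genes were picked with this comparison known, nothing is read from the members' counts against these shares. No member was called higher.

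Each library held between 2610238 and 4318141 recovered reads in the controls and between 3945593 and 6030028 in the EtOH animals. Markers of hepatocytes (Alb, Ttr, Serpina1, Tf and Cps1, 5 of 6 found) summed to between 83344 and 111314 RPKM in the controls. In the EtOH animals they summed to between 91861 and 117879 RPKM. Most of these sums was Alb, with means of 70352 RPKM in the controls and 79085 RPKM in the EtOH animals. Kupffer cell and macrophage markers (4 of 6 found) summed to between 67.1 and 108 RPKM in the controls and between 95.4 and 126 RPKM in the EtOH animals, and 2 of them, Clec4f and Cd163, were called higher. Stellate cell markers (6 of 6 found) summed to between 23.5 and 31.3 RPKM and to between 28.4 and 40.4 RPKM, with Col3a1 called higher, and endothelial markers (3 of 6 found, none called) to between 21.3 and 28.0 RPKM and to between 23.6 and 34.1 RPKM. Cholangiocyte markers (3 of 5 found) stayed at or below 8.16 RPKM in sum in every liver, and the means of Krt7, of the lymphocyte markers Cd3e, Cd3g and Cd79b, and of Col1a1 and Vwf were under 1 RPKM. Erythroid markers (2 of 4 found) summed to between 184 and 392 RPKM in the controls and between 236 and 425 RPKM in the EtOH animals, and none was called. Cps1 was the 1 hepatocyte marker called, higher in the EtOH animals. With livers left out singly, the call was lost in 8 of 12 cases for Clec4f, 10 for Cd163, 9 for Col3a1 and 6 for Cps1. Of 10 other settings, 2 lost the call of Clec4f, 4 that of Cd163, 6 that of Col3a1 and 1 that of Cps1. Median log2 fold changes were 0.57 for Kupffer cell and macrophage markers, 0.34 for stellate, 0.33 for endothelial and 0.37 for erythroid markers. Every measured gene of these lists had a positive estimate. The medians were -0.03 for cholangiocyte markers and 0.00 for hepatocyte markers, and 0.00 over all transcripts. The part of these cell markers in the results below was not tested. In whole liver, fewer cells of a type and less RNA per cell cannot be told apart.

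Upstream sequences are shown for the 3 genes that were lower in the EtOH animals and, as the mitochondrial counterpart of Acat2, for Acat1. Each run is the 250 bases before the RefSeq start of the gene on its own strand, 5′ to 3′, in GRCr8. Capitals mark matches, on either strand, to a core of the sterol regulatory element (CACNCCAC), the NF-Y box (CCAAT), the GC box bound by Sp1 (GGGCGG) and the E-box (CACGTG).
Aacs (chr12:36817775-36818024, minus strand): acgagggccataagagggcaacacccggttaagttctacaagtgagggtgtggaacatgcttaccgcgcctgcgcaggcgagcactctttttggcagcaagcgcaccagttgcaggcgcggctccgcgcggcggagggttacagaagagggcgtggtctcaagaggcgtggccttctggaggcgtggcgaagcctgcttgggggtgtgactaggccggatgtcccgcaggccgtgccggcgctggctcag
Acat2 (chr1:50100590-50100839, plus strand): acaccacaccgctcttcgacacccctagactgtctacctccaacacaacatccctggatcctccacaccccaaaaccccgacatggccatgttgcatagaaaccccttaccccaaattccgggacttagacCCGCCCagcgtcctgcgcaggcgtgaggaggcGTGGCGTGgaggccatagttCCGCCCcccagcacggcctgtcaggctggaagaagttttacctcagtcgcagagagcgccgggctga
Acss2 (chr3:164464453-164464702, plus strand): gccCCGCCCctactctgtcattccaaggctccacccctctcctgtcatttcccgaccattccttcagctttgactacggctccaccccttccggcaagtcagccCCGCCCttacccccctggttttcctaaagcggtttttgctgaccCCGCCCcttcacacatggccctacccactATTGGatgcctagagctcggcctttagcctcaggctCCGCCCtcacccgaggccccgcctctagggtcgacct
Acat1 (chr8:62905043-62905292, minus strand): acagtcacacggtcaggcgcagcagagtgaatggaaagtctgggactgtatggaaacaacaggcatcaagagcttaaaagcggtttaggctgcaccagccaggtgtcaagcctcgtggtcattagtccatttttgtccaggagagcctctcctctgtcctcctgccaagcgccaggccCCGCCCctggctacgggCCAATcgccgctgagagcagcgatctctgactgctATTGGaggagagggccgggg

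The sterol regulatory core was in 1 of the 7 genes' upstream sequences, that of Acat2, at 87 bases before the start, and in 4.84% of the 27457 RefSeq upstream sequences of this length. The CCAAT box was in 3 of 7 (Acss2, Acly and Acat1) and in 34.3% of all, the GC box in 6 of 7 (every one but Aacs) and in 32.4% of all, and the E-box in 0 of 7 and in 5.79% of all. No matches of different motifs overlapped in the 7 genes. A match is a run of letters in this window and not a shown binding site.

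Ketogenesis was represented by Acat1 and Bdh1. Acat1 (chromosome 8, positions 57044655 to 57072970 as the authors list them) encodes the mitochondrial thiolase that joins acetyl-CoA into acetoacetyl-CoA. Its RPKM ran from 79.8 through a median of 88.0 to 115 in the controls and from 67.4 through 78.4 to 84.5 in the EtOH animals. The groups overlapped. Control animal 2 was the highest of the 12 livers, and 3 EtOH livers lay below the lowest control. Mean RPKM was 91.1 ± 12.5 in the controls and 77.2 ± 6.89 in the EtOH animals (SD, n = 6 each), and the normalized log2 fold change was -0.09 (standard error, SE, 0.08, 95% interval -0.26 to 0.08, limma adjusted p = 0.65). It was -0.23 without normalization (limma adjusted p = 0.18) and -0.02 without control animal 2.

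Bdh1 (chromosome 11, positions 71130561 to 71165695), the dehydrogenase that interconverts acetoacetate and 3-hydroxybutyrate, was the steadiest member. Its RPKM ran from 69.9 through a median of 72.4 to 74.4 in the controls, a coefficient of variation of 2.49%, and from 62.6 through 69.1 to 77.4 in the EtOH animals, a coefficient of variation of 8.68%. The control livers lay inside the EtOH range, with 4 EtOH livers below and 2 above all controls. The log2 fold change was 0.10 after quantile normalization (SE 0.06, 95% interval -0.03 to 0.24, limma adjusted p = 0.48) and -0.05 without normalization, so its sign depended on the scaling. Among the 631 transcripts of 50 to 150 RPKM on average, the median log2 difference between EtOH animals and controls was -0.15 as deposited and 0.01 after normalization. The normalized log2 fold changes are relative to that shift.

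Oxct1 (chromosome 2, positions 53189357 to 53217845), the mitochondrial transferase with which organs other than liver activate acetoacetate, was near the limit of detection. It rested on 2 to 18 recovered reads per liver. RPKM ran from 0.564 through a median of 0.864 to 1.65 in the controls and from 0.236 through 1.11 to 2.04 in the EtOH animals, with the EtOH range enclosing that of the controls. The log2 fold change was 0.05 (SE 0.29, 95% interval -0.58 to 0.68, limma adjusted p = 0.95).

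**Figure D1:**
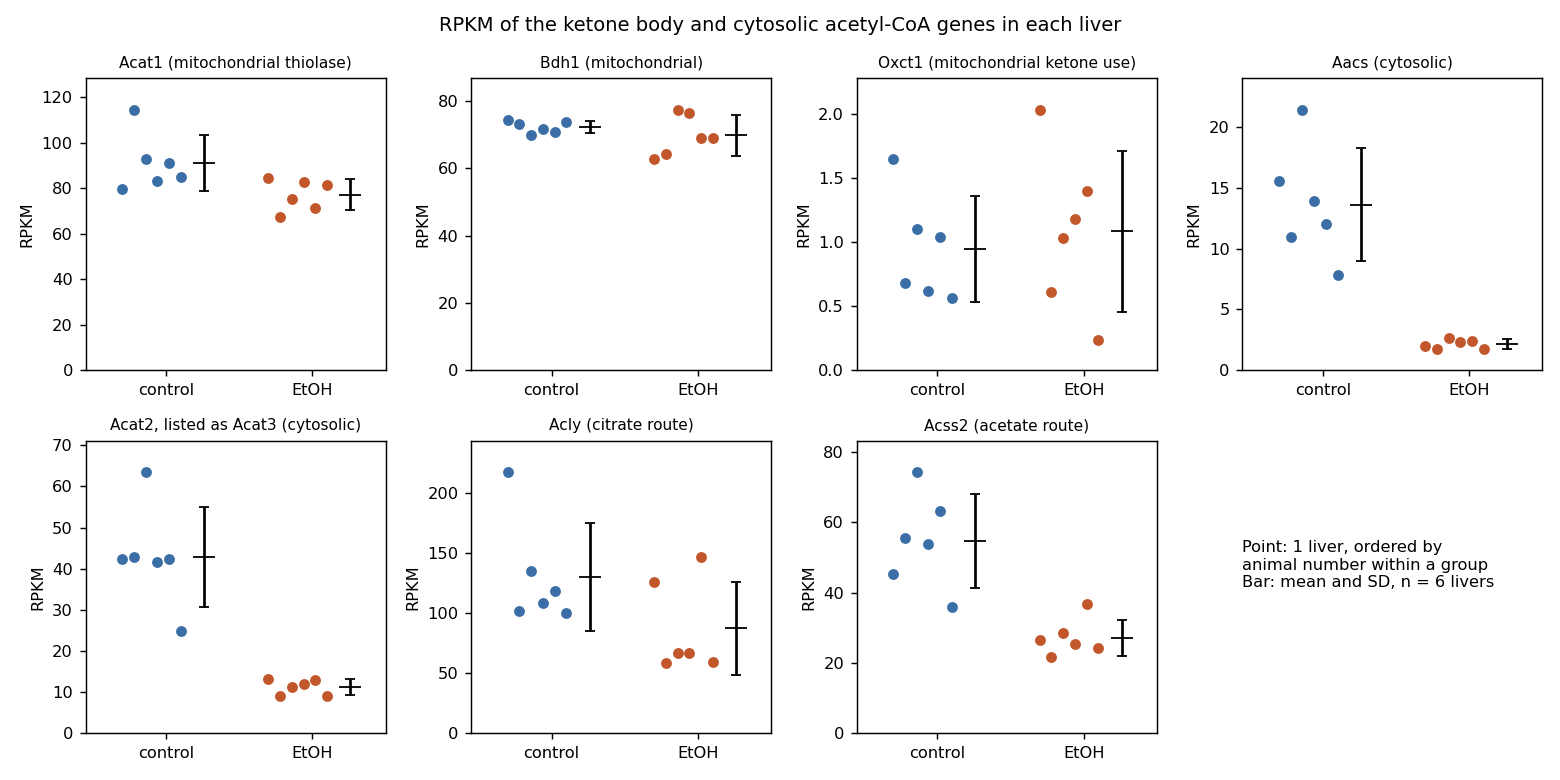
RPKM (linear axes from 0) of the 7 genes in each of the 6 control (blue) and 6 EtOH (orange) livers, 1 point per liver in order of animal number, with the mean and SD beside each group. The EtOH points lie below all control points for Aacs (at most 2.68 against at least 7.85) and Acat2 (at most 13.2 against at least 24.9), while the groups overlap in the other 5 panels.

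Aacs (chromosome 12, positions 32206867 to 32250624) encodes acetoacetyl-CoA synthetase, which activates acetoacetate in the cytosol. Its RPKM was 15.5, 11.0, 21.4, 13.9, 12.1 and 7.85 in control animals 1 to 6. In EtOH animals 1 to 6 it was 2.03, 1.76, 2.68, 2.32, 2.44 and 1.71. All EtOH livers lay within 1 RPKM of each other and far below the lowest control, animal 6, while the controls ranged widely, with animal 3 the highest. The mean fell from 13.6 ± 4.64 to 2.16 ± 0.389 RPKM (SD, n = 6 each), with a log2 fold change of -2.28 (SE 0.19, limma adjusted p = 2.1e-04), which the pseudocount of 0.5 understates for a gene this low. The level rested on 120 to 234 recovered reads per control liver and 25 to 58 per EtOH liver, although the EtOH libraries were on the whole deeper.

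Acat2 (listed as Acat3, chromosome 1, positions 41922020 to 41940073) encodes the cytosolic thiolase. RPKM was 42.2, 42.8, 63.4, 41.6, 42.3 and 24.9 in control animals 1 to 6. In EtOH animals 1 to 6 it was 13.2, 8.95, 11.1, 12.0, 12.9 and 9.01. The groups did not overlap, and 4 of the controls stood close together with animal 3 above and animal 6 below them. The mean fell from 42.9 ± 12.2 to 11.2 ± 1.85 RPKM (SD, n = 6 each), with a log2 fold change of -1.72 (SE 0.16, limma adjusted p = 4.7e-04). Its second row held 1 recovered read over the controls and 4 over the EtOH animals.

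Acss2 (chromosome 3, positions 146013995 to 146057119) encodes the acetyl-CoA synthetase that activates acetate in the cytosol and nucleus. The main row of its 4 had an RPKM of 45.2, 55.6, 74.3, 53.7, 63.4 and 35.9 in control animals 1 to 6. In EtOH animals 1 to 6 it was 26.4, 21.7, 28.4, 25.2, 36.7 and 24.3. The groups met at 1 point, with EtOH animal 5 above control animal 6 and the other 5 EtOH livers below every control. The mean fell from 54.7 ± 13.5 to 27.1 ± 5.19 RPKM (SD, n = 6 each), with a log2 fold change of -0.82 (SE 0.14, limma adjusted p = 0.015). A second row was at 3.41 ± 2.75 RPKM in the controls and 0.992 ± 0.888 RPKM in the EtOH animals and was not called (log2 fold change -1.16, SE 0.65). Another row held 0 recovered reads in the controls and 36 in the EtOH animals, 17 and 18 of them in EtOH animals 5 and 6. That row was not called (log2 fold change 0.64, SE 0.34). The last row held 1 recovered read in the controls and 0 in the EtOH animals.

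Control animal 3 was the highest and control animal 6 the lowest of the controls for each of Aacs, Acat2 and Acss2. These animals did not stand at the ends for Bdh1 or Acat1 in the same way, since control animal 3 had the lowest Bdh1 of the controls and control animal 2 the highest Acat1. Without control animal 3 the log2 fold changes were -2.15 for Aacs, -1.61 for Acat2 and -0.75 for Acss2, and without control animal 6 they were -2.40, -1.84 and -0.91. The 3 genes stayed called without any 1 of the 12 livers, with adjusted p-values of at most 0.0018, 0.0044 and 0.044 from limma.

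Acly (chromosome 10, positions 89420934 to 89471398), the ATP citrate lyase that releases acetyl-CoA from citrate, had the highest mean RPKM of the members and varied widely within each group, with coefficients of variation of 34.4% in the controls and 44.4% in the EtOH animals. Its main row had an RPKM of 217, 101, 135, 108, 118 and 99.7 in control animals 1 to 6. In EtOH animals 1 to 6 it was 126, 58.2, 66.6, 66.4, 147 and 59.1. Of the EtOH livers, 4 lay below every control, and EtOH animals 1 and 5 lay inside the control range. The mean was 130 ± 44.6 RPKM in the controls and 87.1 ± 38.7 RPKM in the EtOH animals (SD, n = 6 each), and the log2 fold change of -0.47 was not called (SE 0.27, 95% interval -1.06 to 0.12, limma adjusted p = 0.46). A second row at the same positions was at 51.3 ± 20.1 RPKM and 37.1 ± 18.5 RPKM, and was not called either (log2 fold change -0.34, SE 0.31). The main row took 71.8% ± 5.01 of the RPKM of all Acly rows in the controls and 69.9% ± 5.80 in the EtOH animals. The sources used here do not say how reads were divided between rows of a gene.

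Ranked by mean RPKM, the controls had the order Acly, Acat1, Bdh1, Acss2, Acat2, Aacs and Oxct1, with Acly above Acat1 in 5 of 6 livers. The means of the EtOH animals gave that order too, but there the place of Acly rested on animals 1 and 5. Acly exceeded Acat1 in only these 2 of the 6 EtOH livers, and by medians it stood at 66.5 RPKM, below Acat1 at 78.4 and Bdh1 at 69.1. Among the controls the ranges of neighbours overlapped for Acly and Acat1, for Bdh1 and Acss2, and for Acss2 and Acat2. Among the EtOH animals Acss2 and Acat2 stood apart from their neighbours, while Acly overlapped Acat1 and Acat1 overlapped Bdh1. There Aacs overlapped Oxct1, whereas in the controls every liver had more Aacs than any had Oxct1.

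Set against each other within a liver, the cytosolic and mitochondrial genes gave shares that do not depend on a linear scaling between livers. Acat2 made up 31.7% ± 6.19 of the summed RPKM of Acat2 and Acat1 in the controls, from 22.7 to 40.6%. In the EtOH animals it made up 12.7% ± 1.78, from 9.95 to 15.3%. Thus all 6 EtOH livers had a smaller Acat2 share of this sum than any control, as Acat2 alone also separated the groups. Other thiolases, such as Acaa2, are not in the sum. Bdh1 over Acat1, both mitochondrial, was 0.805 ± 0.104 in the controls and 0.909 ± 0.101 in the EtOH animals (SD, n = 6 each), with overlap. Acly over Acss2, the citrate against the acetate route, was 2.52 ± 1.18 and 3.14 ± 0.996 and overlapped as well, with control animal 1 and EtOH animal 1 the highest of their groups at 4.80 and 4.76. Acss1, the mitochondrial acetate-activating enzyme, was at 0.359 ± 0.260 RPKM in the controls and 0.701 ± 0.302 RPKM in the EtOH animals, and was listed at 0 in control animal 1. Acss2 stood at 130 to 301 times the RPKM of Acss1 in control animals 2 to 5 and at 47.0 times in control animal 6. It stood at 24.5 to 54.3 times in EtOH animals 1 to 5 and at 197 times in EtOH animal 6, with Acss1 resting on 113 recovered reads over the 12 livers. These shares are descriptions, and no test was made on them.

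**Figure D2:**
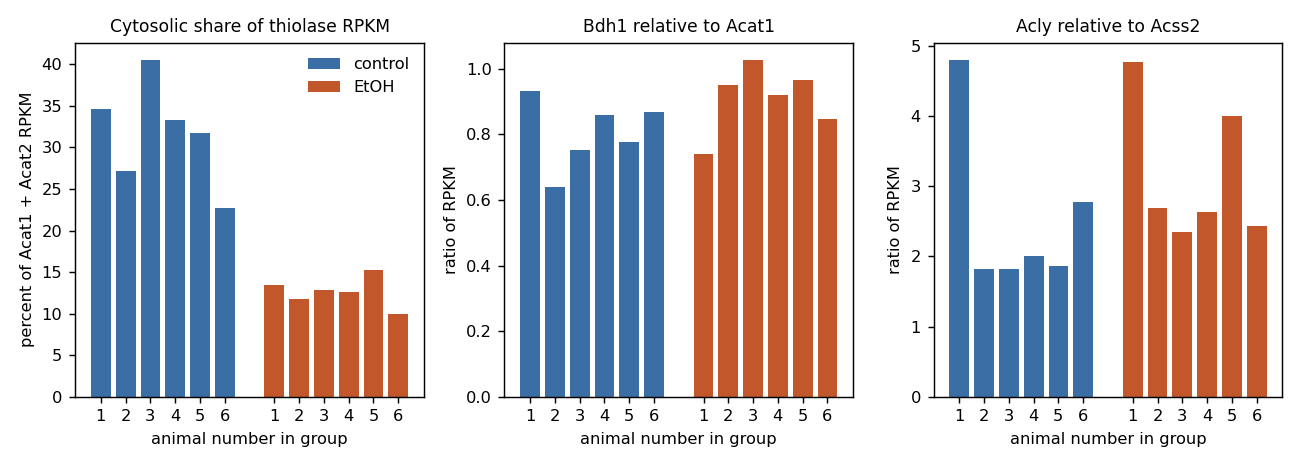
Ratios between genes within each liver, as percent or as ratio of RPKM on linear axes from 0, 1 bar per animal (controls in blue, EtOH animals in orange). The cytosolic thiolase share, taken as Acat2 in the sum of Acat2 and Acat1 RPKM (22.7 to 40.6% against 9.95 to 15.3%), separates the groups. Bdh1 relative to Acat1 and Acly relative to Acss2 do not.

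The wider pathway was described by gene lists, whose counts stand beside a share of 2.42% called over all transcripts and a median log2 fold change of 0.00. Fatty acid entry and beta-oxidation, which feed ketogenesis, had 14 measured genes, of which 1 was called lower and 0 higher, with a median log2 fold change of -0.01. The 1 was Acsl1, an acyl-CoA synthetase, at 743 ± 43.1 RPKM in the controls and 620 ± 45.9 RPKM in the EtOH animals (log2 fold change -0.25, adjusted p = 0.023 from limma). That call was lost without control animal 2 (adjusted p = 0.051) or EtOH animal 5 (adjusted p = 0.051), under median scaling (adjusted p = 0.16), without the variance trend (adjusted p = 0.055) and with the replicate block (adjusted p = 0.12). Cpt1a, the gate for fatty acid entry into mitochondria, was at 23.5 ± 7.12 RPKM and 43.5 ± 18.1 RPKM, and Acaa2, the mitochondrial thiolase of beta-oxidation, at 236 ± 37.8 RPKM and 168 ± 22.5 RPKM (SD, n = 6 each). Neither was called (limma adjusted p = 0.089 and 0.077).

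Of 8 measured genes for ketone use and monocarboxylate transport, 1 was called lower, Aacs, and 0 higher, with a median log2 fold change of 0.01. Transporters of the monocarboxylate family showed log2 fold changes of -0.09 for Slc16a1, 0.10 for Slc16a7 and -0.03 for Slc16a6. Slc16a1 was at 33.9 ± 5.56 RPKM in the controls and 28.4 ± 3.25 RPKM in the EtOH animals. Bsg, a chaperone of Slc16a1, had a log2 fold change of 0.22. Slc5a8 was listed at 0 in all 12 livers.

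Among 8 genes of cytosolic acetyl-CoA supply, 3 were called lower and 0 higher, with a median log2 fold change of -0.23. Beside Acss2 these were Slc25a1, which exports citrate from mitochondria, and Me1, the malic enzyme that returns malate to pyruvate and makes NADPH. Slc25a1 fell from 98.8 ± 14.6 to 64.9 ± 3.55 RPKM (log2 fold change -0.45, SE 0.06, limma adjusted p = 0.0024). Me1 fell from 32.7 ± 9.92 to 10.8 ± 2.84 RPKM (log2 fold change -1.40, SE 0.19, limma adjusted p = 0.0039). The groups of 6 livers overlapped for neither gene. Acly, Mdh1, Aco1, Cs and Slc13a5 had log2 fold changes of -0.47, -0.01, 0.00, 0.03 and 0.09, and none of these passed the test.

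Of the 4 measured genes that first use cytosolic acetyl-CoA and acetoacetyl-CoA, 2 were called lower, Acat2 and Hmgcs1, and 0 higher. Hmgcs1, the cytosolic HMG-CoA synthase that takes up the product of Acat2, fell from 232 ± 53.0 to 54.7 ± 15.8 RPKM (log2 fold change -1.94, SE 0.19, limma adjusted p = 5.1e-04). By quantitative RT-PCR (qRT-PCR) on samples of this experiment, however, the paper found no significant change in Hmgcs1. Acaca and Acacb, the acetyl-CoA carboxylases that start fatty acid synthesis and restrain fatty acid entry into mitochondria, were not called, at 0.25 (SE 0.18) and 0.38 (SE 0.18) on the log2 scale. The median log2 fold change of the 4 was -0.73.

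Of 5 measured genes for acetate and acetyl groups elsewhere in the cell, none was called, and their median log2 fold change was 0.06. Crat, which moves acetyl groups between CoA and carnitine, was at 32.2 ± 12.1 RPKM in the controls and 13.4 ± 7.53 RPKM in the EtOH animals, with a log2 fold change of -1.23 and a standard error of 0.44 (adjusted p = 0.19 from limma). Acss3, a mitochondrial relative of Acss2 that was listed under an older symbol, was at 62.1 ± 12.8 RPKM and 70.9 ± 8.81 RPKM. Acot12, which hydrolyses cytosolic acetyl-CoA, was at 30.3 ± 4.11 RPKM and 28.2 ± 4.50 RPKM (SD, n = 6 each).

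**Figure D3:**
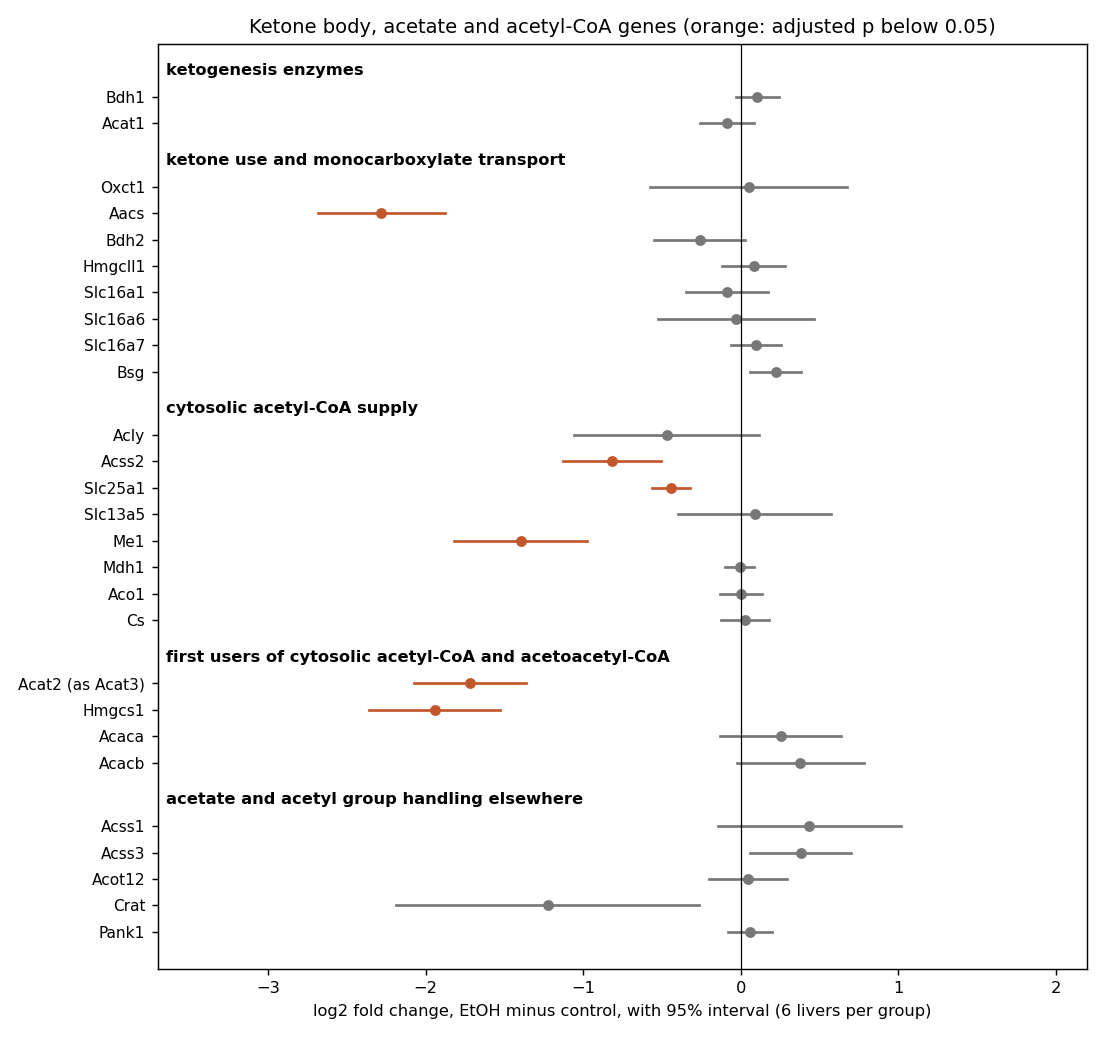
Log2 fold changes (EtOH minus control, points) with 95% intervals (lines) from limma for genes of 5 lists, with orange marking an adjusted p below 0.05. Acat1 and Bdh1 lie near 0, and the orange genes are Aacs, Acss2, Slc25a1, Me1, Acat2 and Hmgcs1, all lower in the EtOH animals.

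Of 9 measured regulators, 2 were called lower, 1 higher and 6 not, with a median log2 fold change of -0.07. Srebf1 and Srebf2, which encode the factors that switch on lipid and sterol synthesis genes, had log2 fold changes of -1.22 and -0.46 (adjusted p = 0.030 and 0.019 from limma), and Insig2, which holds these factors in the endoplasmic reticulum, had 0.32 (adjusted p = 0.046 from limma). The Srebf1 call was lost without any 1 of 9 livers (highest adjusted p = 0.079), all but control animal 6 and EtOH animals 3 and 5. The Insig2 call was lost without any 1 of 9 livers as well (highest adjusted p = 0.099), all but control animals 5 and 6 and EtOH animal 1, and under 6 of 10 other settings (highest adjusted p = 0.33). Srebf2 stayed called without each liver and was lost with the replicate block (adjusted p = 0.11), as was Srebf1 (adjusted p = 0.094), which was also lost by the unmoderated pooled test of square-root values (adjusted p = 0.051). Ppara, the receptor that turns on ketogenesis and fatty acid oxidation in fasting, was at 12.2 ± 3.46 RPKM in the controls and 16.5 ± 2.52 RPKM in the EtOH animals and was not called (adjusted p = 0.096 from limma). The paper reported Ppara as significantly higher in the EtOH animals by qRT-PCR, though not in its sequencing data. It reported Srebf1 as significantly lower in the EtOH animals by both methods.

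Of 8 measured genes that respond to fasting, 2 were called higher and 0 lower, with a median log2 fold change of 0.06. Pck1, the gluconeogenic carboxykinase, rose from 265 ± 49.9 to 796 ± 184 RPKM with every EtOH liver above the controls (log2 fold change 1.62, SE 0.16, limma adjusted p = 5.1e-04). By qRT-PCR the paper also found Pck1 higher in the EtOH animals. Pdk4, the kinase that shuts pyruvate out of the mitochondrial acetyl-CoA pool, rose from 21.7 ± 6.94 to 35.9 ± 6.82 RPKM (SD, n = 6 each, adjusted p = 0.048 from limma), a call that held only without control animal 6 when livers were left out singly (highest adjusted p = 0.12) and that 6 of 10 other settings lost (highest adjusted p = 0.16). Fgf21, Angptl4 and Cyp4a1, which Ppara controls, had log2 fold changes of -0.91, 0.58 and 0.28 and were not called.

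Over the 12 livers, 11077 transcripts averaging 1 RPKM or more were compared with each called member by the root mean square difference of normalized log2 values, each centred on its own mean. The 3 nearest to Aacs were Sqle, squalene epoxidase (0.24), Idi1, an isopentenyl diphosphate isomerase (0.36), and Sc4mol, a sterol methyl oxidase (0.40). Nearest to Acat2 were Sc4mol (0.19), Mvd, mevalonate diphosphate decarboxylase (0.20), and Dhcr7, a sterol reductase (0.22). Nearest to Acss2 were Gstm4, a glutathione transferase (0.17), Scly, selenocysteine lyase (0.17), and Bcl3, a nuclear partner of NF-kappaB (0.18). A profile with a like difference between the groups is near by construction, and the points share libraries and depth.

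**Figure D4:**
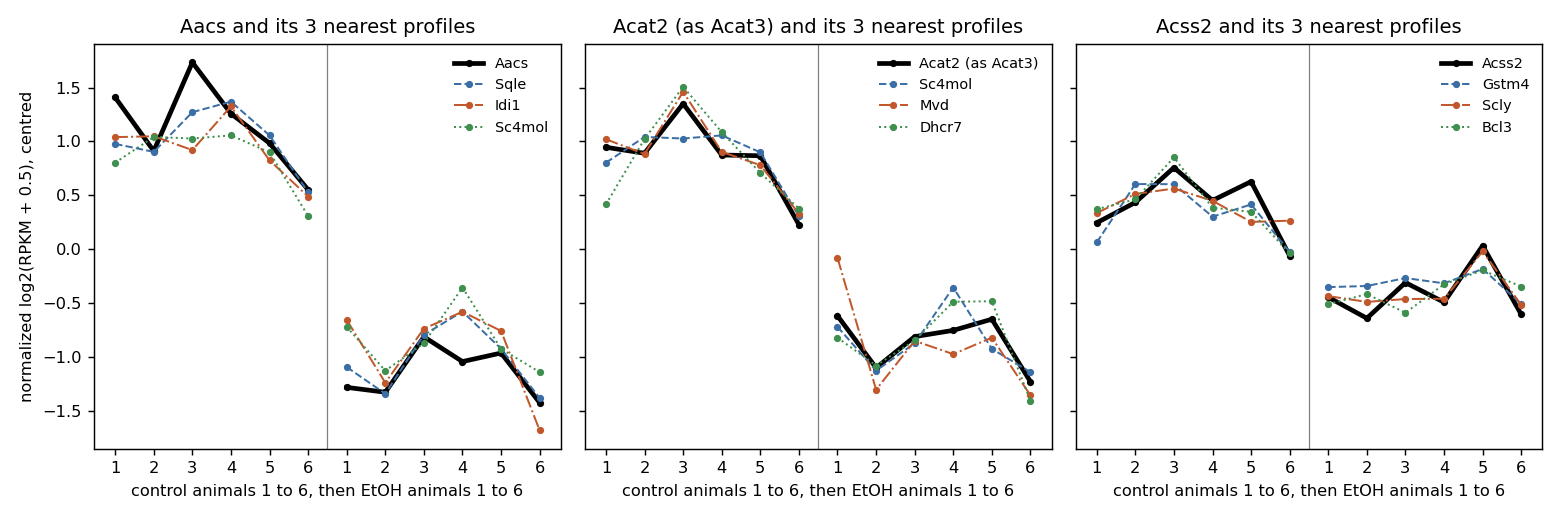
Normalized log2(RPKM + 0.5), centred per transcript, in control animals 1 to 6 and EtOH animals 1 to 6 for Aacs, Acat2 and Acss2 (black) and the 3 transcripts nearest to each. In all 3 panels control animal 6 gives the lowest control value of the black line, and the distance between lines is 0.17 to 0.40 on the log2 scale as a root mean square.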

How the data were processed

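RNA from whole liver of 6 EtOH and 6 control animals was sequenced in a single lane. Reads were mapped by the authors in CLCbio Genomics Workbench, and the deposited values are RPKM per transcript and liver, untransformed. For the listed positions the genome build is not given in the sources read. The authors also deposited their own comparison, as score values (fold change with sign, test statistic) and as p-values with FDR, which were not used.

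The members and lists were chosen with earlier results of these data known. Lists are described by counts and medians, without a set test. Symbols were matched by name or through older symbols in RefSeq (GRCr8). Oxct2a, Nudt7, Fasn, Mlxipl, G6pc and Cyp4a10 were matched to no row and are not analysed here. The ketogenesis and lymphocyte lists as wholes, and 3 of their genes, are not reported here, and of the other lists only some genes are named. The comparison used limma 3.58.1 in R 4.3.3, which let the variance follow the mean level, on log2(RPKM + 0.5) after quantile normalization over 21718 transcripts, Benjamini-Hochberg adjustment and a threshold of 0.05, two-sided. Other steps used Python 3.11.15, numpy 2.4.6 and pandas 2.3.3. Group values are means and SD of RPKM as deposited. The procedure was tested on simulated data.

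Whole reads were recovered from the steps between RPKM values, within 0.01 of a read, for all 21718 transcripts. They gave 2610238 to 6030028 reads per liver and are the smallest numbers that the ratios allow. Precision at low levels is limited by these counts.

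Named were all members, the genes of the lists and, for each called member, the 3 transcripts nearest to it over the 12 livers. Alternatives were pseudocounts of 0.1 and 1, no normalization, median scaling, square-root values with limma or an unmoderated pooled test, a minimum mean RPKM of 1, no trend, the animal number as a replicate block, voom on recovered reads and each liver left out in turn. Rows of a gene name summed was chosen after seeing the data, as were the motifs. Whether the 12 animals came from separate litters or cages is not given in the labels, so p-values measure the spread between these livers.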

Additional observations from a re-analysis of the deposited data

Results flagged for a closer look

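Among the 14 groups of 6 livers examined (7 main rows in 2 groups), 1 held a liver that stood apart. Acly was at 217 RPKM in control animal 1, with the next control at 135 RPKM, a gap of 0.698 of the whole range of the controls, which passes Dixon's critical value for 6 livers. Chance gives such a gap in about 1 in 20 groups. The second Acly row was also highest in that liver among the controls, at 85.9 RPKM. Without control animal 1 the log2 fold change of Acly was -0.29 and was not called. Control animal 1 had the fewest recovered reads of the 12 libraries, 2610238, and the part of depth in this value was not tested.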

How the results depend on the processing

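Aacs, Acat2 and Acss2 stayed called lower under all 11 other settings and without each liver, so the count of members called was 3 throughout. Among these settings, Acss2 had its highest adjusted p, 0.041, by the unmoderated pooled test of square-root values. The paper's main list of changed genes, filtered by FDR and fold change, holds Aacs and Acat2 (as Acat3) but not Acss2. With rows of a gene summed, a setting chosen after seeing the data, Acss2 had a log2 fold change of -0.86. The square-root settings give differences in square roots of RPKM, not log2. Bdh1 turned from 0.10 to -0.054 without normalization, and Oxct1 turned negative without control animal 4 (-0.01), control animal 6 (-0.02), EtOH animal 1 (-0.092) or EtOH animal 5 (-0.02), in a range of -0.092 to 0.25. Over all transcripts 526 calls became 322 by the pooled test of square-root values, 860 with means under 1 RPKM left out, 977 with rows of a gene summed and 113 with the replicate block. Leaving out EtOH animal 2 gave the fewest calls, 207, and leaving out control animal 6 the most, 634. All calls were 281 lower and 245 higher in the main comparison, 648 and 126 without normalization and 337 and 194 under median scaling. The fatty acid list had 2 calls without normalization, 0 with median scaling, 0 without the trend, 0 with the replicate block, 3 with low means left out, and 0 to 2 with a liver left out. The regulators had 1 call by the pooled square-root test, 0 with the replicate block, 4 with low means left out, 2 without normalization, with median scaling, without the trend and with voom, and 1 to 3 with a liver left out. The fasting list had 1 call without normalization, with median scaling, by the pooled square-root test, without the trend, with the replicate block and with voom, and 1 to 3 with a liver left out. The cause of these changes was not tested. The other lists kept their counts in every setting run.

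Taken over all transcripts averaging 1 RPKM or more, the animal numbers did not pair the livers. The correlation of same-numbered deviations from group means ran from -0.07 to 0.03 over 6 pairs (11086 transcripts averaging 1 RPKM or more), and 1 of 12 livers correlated best with its own number. With the replicate block Aacs, Acat2 and Acss2 had adjusted p-values of 0.0017, 0.0021 and 0.022 from limma. Their standard errors were 0.13, 0.11 and 0.09 with the block, against 0.19, 0.16 and 0.14 without it. The standard error was also smaller for Acly (0.16 against 0.27) and Oxct1 (0.22 against 0.29). It was larger for Acat1 (0.09 against 0.08) and Bdh1 (0.08 against 0.06). Whether same-numbered livers vary together for single genes was not tested. Few reads stood behind Oxct1, at 2 to 18 per liver, and Acss1, at 113 over 12 livers.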
